A study of Mus musculus with 20 samples.

Results

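The genes described here are 10 genes of MHC class I and of the machinery that loads it with peptide: B2m, H2-D1, H2-K1, H2-T23, Tap1, Tap2, Tapbp, Nlrc5, Erap1 and Calr. Every probe whose annotation carries one of these names was taken. This gave 12 probes of 10 genes, out of 39429 probes with 31093 gene names on the array. H2-K1 and Nlrc5 each have 2 probes and every other member has 1.

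MHC class I molecules carry short peptides from inside the cell to its surface, where CD8 T cells and natural killer cells inspect them. Each is a heavy chain (H2-D1 and H2-K1 are the classical ones of this mouse strain, and H2-T23 encodes the non-classical Qa-1) bound to the light chain beta-2-microglobulin, the product of B2m. Peptides are pumped into the endoplasmic reticulum by the Tap1/Tap2 transporter, trimmed there by Erap1 and loaded with the help of tapasin (Tapbp) and calreticulin (Calr), while Nlrc5 is a transactivator of class I genes; almost all nucleated cells of the blood, and platelets, bear class I.

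The study asked how blood responds to ionizing radiation in a mouse model of inflammatory bowel disease. RNA from whole blood of 20 male mice was hybridized to single-colour Agilent arrays, described as 1 mouse per array. The mice were littermates aged 8 to 10 weeks, of the C57BL/6 wild type (WT) or of the line B6.129P2-Il10tm1Cgn/J (Il10-/-), which carries a germline knockout of the anti-inflammatory cytokine Il10 in all its cells. WT and Il10-/- mice were exposed to 7 Gy of X-rays over the whole body or sham-irradiated (0 Gy), and blood was drawn from the heart 24 h later, so that there were 4 groups of 5 mice: WT at 0 Gy, WT at 7 Gy, Il10-/- at 0 Gy and Il10-/- at 7 Gy. Globin RNA was reduced in all 20 samples. Values below are scaled log2 signals, that is, log2 of the background-subtracted spot intensity after a constant per array was removed. A difference of 1 on this scale is a doubling of signal.

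Several arrays stand apart, and the Il10 probe was brighter in the mice labelled Il10-/-. The Il10 probe stood well above background on 0 of 10 arrays of mice labelled WT and on 10 of 10 arrays of mice labelled Il10-/-. Its mean signal was at least 5.95-fold higher at 0 Gy, and at least 7.73-fold higher at 7 Gy, in the mice labelled Il10-/- than in those labelled WT. Where this probe lies relative to the altered part of the gene was not determined. Its signal therefore neither checks the knockout nor contradicts the labels. Markers of neutrophils, cells linked to inflammation, had a median 1.67 log2 higher at 0 Gy in the mice labelled Il10-/-, with 3 of 8 called. That does not by itself identify the genotype. Genotypes below are those of the labels, and every direction between genotypes rests on them. Replicates 1 and 2 were more alike in each of the 4 groups than other pairs: the robust SD of their differences in log2 signal was 0.246 to 0.355, against 0.446 to 1.484 for the other 36 pairs within groups. Counts of calls are therefore also given with these replicates averaged and counted as 1 sample. Whether replicates 1 and 2 come from separate mice was not determined. If they do not, the standard errors, intervals, p-values and counts over 5 slides below overstate the precision. On WT 0 Gy replicate 5, 29.9% of spots were well above background, the lowest share of the 20 arrays (highest, 57.8%), and the repeated spots on it had an SD of 0.889 log2. Il10-/- 7 Gy replicate 3 had the next lowest share, 34.6%, and repeated spots with an SD of 0.414 log2. Its share of spots above background by the looser measure, 51.4%, was the lowest of all. Each of the 5 slides carried 1 array of each group with the same replicate number, so that a slide is a batch that holds every group.

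All 12 member probes passed the filter on background, and 9 were well above background on all 20 arrays. The others were Erap1 (well above background on 7 arrays), Nlrc5 A_66_P113043 (15 arrays) and Nlrc5 A_55_P2016034 (19 arrays). No member probe was saturated. The accessions of all 12 probes were found in the RefSeq table under the same symbol. A second filter, on features that change little, removed H2-K1 A_51_P198434 and Nlrc5 A_55_P2016034, which leaves 10 tested probes; values for these 2 come from the model without that filter. The H2-D1, H2-K1, Tap1, Tap2 and Tapbp probes lie on chromosome 17, in the mouse MHC region, while B2m is on chromosome 2, Erap1 on 13, and Nlrc5 and Calr on 8.

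Class I heavy chains are so similar in sequence that a probe can read more than 1 of them. An H2-K1 probe (A_55_P2049647, chr17:34133984-34134043 of mm9, minus strand per the file headers) and the H2-T23 probe (A_51_P237754, without a position in the files) share a run of 29 bases, printed in capitals; both are shown because the results for these genes turn on them.
H2-K1 A_55_P2049647: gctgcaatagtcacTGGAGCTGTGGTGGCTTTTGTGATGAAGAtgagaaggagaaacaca
H2-T23 A_51_P237754: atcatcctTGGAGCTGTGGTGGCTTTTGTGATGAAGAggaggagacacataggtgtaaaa
At their best alignment without gaps, 39 of the 60 bases match. How much of each signal comes from the other gene, or from further class I genes, was not determined. The other H2-K1 probe and the H2-D1 probe share no run of 16 or more bases with any probe of another gene name. Only probes on the array were compared, not transcripts, so whether these probes also read other heavy chains was not determined.

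In WT mice, radiation was followed by a higher signal of B2m, H2-T23 and Calr, and in mice labelled Il10-/- by a higher signal of B2m and H2-T23. The call rule asked of each of 16503 tested features a limma p under 0.001 and an adjusted p (Benjamini-Hochberg) under 0.10. By that rule 3 of 10 tested member probes were called higher in WT mice, where 6.76% of all tested features were called higher, and none was called lower. By the same rule 2 of 10 were called higher in the mice labelled Il10-/-, against 5.7% of all features. Without overlap, with every 7 Gy array above every 0 Gy array, were 6 of 10 member probes in WT mice (14.8% of all features) and 5 of 10 in the mice labelled Il10-/- (11.2%). At an adjusted p below 0.05 alone, 6 of 10 were higher in WT mice (15.7% of all features), namely B2m, H2-D1, H2-K1, H2-T23, Tapbp and Calr. That looser rule gave 5 of 10 higher in the mice labelled Il10-/- (13.3%), the same list without Calr. The median difference over all 12 probes was 0.95 log2 in WT mice and 0.52 log2 in the mice labelled Il10-/-, beside −0.05 and 0.04 over 18785 genes measured. Across the 4 other scalings the median over the brightest probe of each of the 10 genes was 0.81 to 1.59 log2 in WT mice and 0.07 to 0.43 log2 in the mice labelled Il10-/-. Its lowest value, 0.07 log2 after normexp correction, had 5 of 10 genes above 0, beside a median of −0.11 log2 over all genes. Fewer cells of a type and less RNA per cell cannot be told apart in whole blood, and this holds for every difference below.

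The calls depend on the scaling, on how slides and replicates enter the model and on liver and heart covariates. The directions of the heavy and light chains depend on these less. With arrays scaled by their median or by their 75th percentile, 0 of the tested member probes were called in either genotype by limma, although B2m then differed by 1.15 to 1.37 log2 in WT mice and by 1.00 to 1.03 log2 in the mice labelled Il10-/-. With the slide (replicate number) as a block, 0 of 10 were called in WT mice and 1 of 10, B2m, in the mice labelled Il10-/-. With replicates 1 and 2 averaged, the count was 0 of 10 in both, although the differences stayed about as large. B2m then differed by 1.39 log2 in WT mice and 1.21 log2 in the mice labelled Il10-/-, and H2-T23 by 1.26 and 1.03 log2. With liver and heart covariates 0 of 10 were called in either genotype. In WT mice that fit called 7 of 16503 features, 0 of them higher, so the loss is not particular to the members. Summed liver signal did not overlap between doses in WT mice (11.68 to 11.98 log2 at 0 Gy, 12.73 to 20.16 log2 at 7 Gy). Liver signal and dose are therefore hard to tell apart in that fit. In WT mice the covariates left H2-T23 and Calr at 0.42 log2 and turned H2-K1 (A_55_P2049647) to −0.23 log2. Over all alternatives tried, B2m, H2-D1, H2-T23 and Tapbp kept differences above 0 in both genotypes. Platelet markers had medians of 1.19 and 1.35 log2 by dose (WT, then Il10-/-) and liver genes 6.84 and 1.81 log2, while B cell markers were lower.

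**Figure D1:**
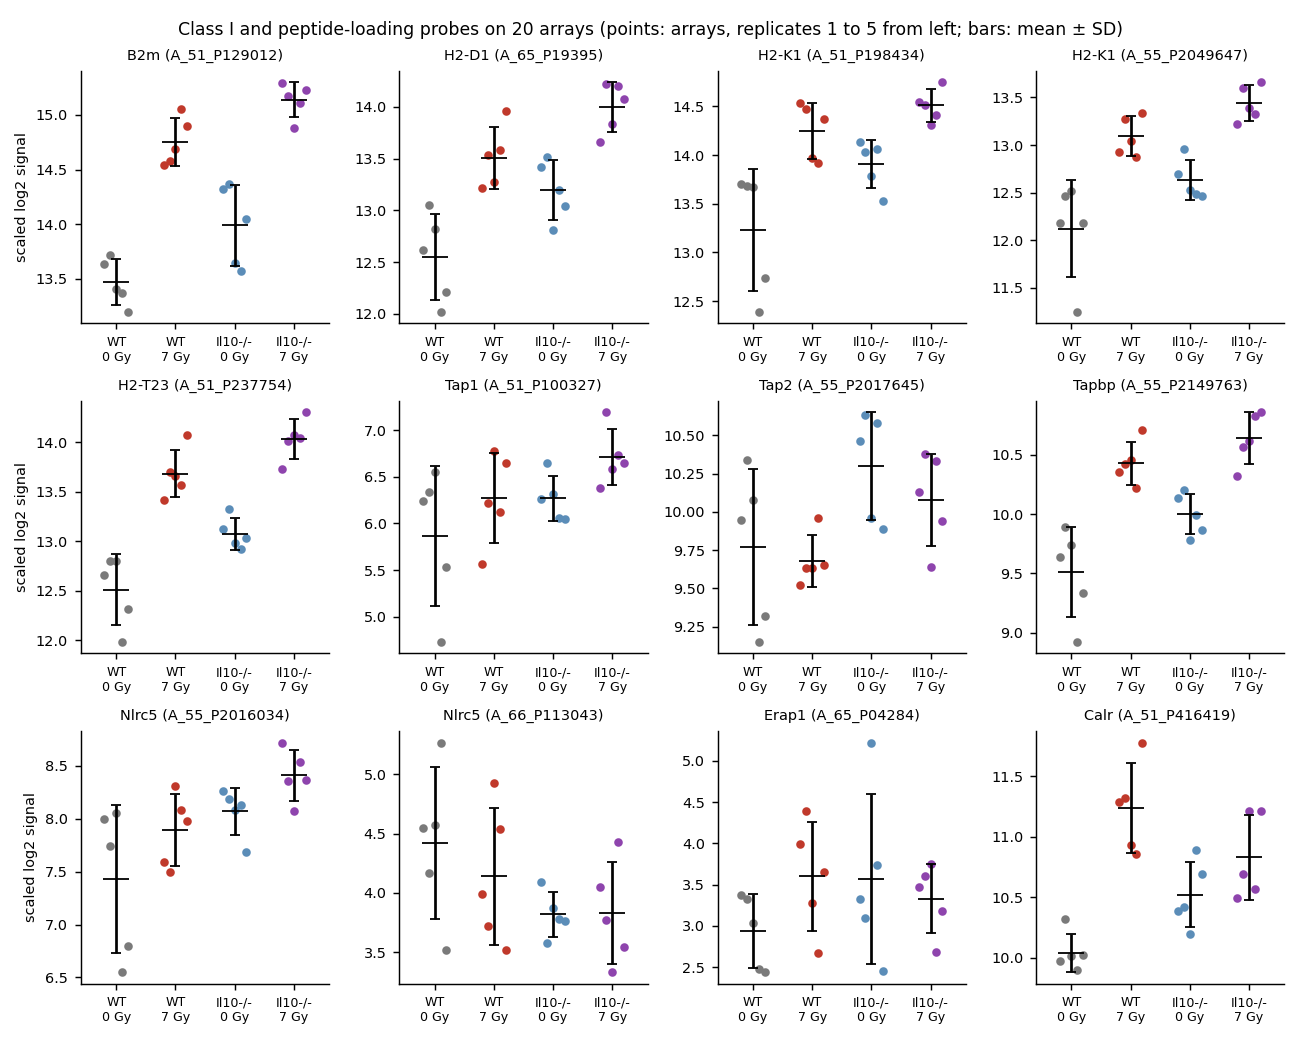
Scaled log2 signal (vertical axis) of the 12 member probes on 20 arrays in the 4 groups (horizontal axis); points are arrays, replicates 1 to 5 from left, and bars are the mean with SD. The 7 Gy arrays lie above all 0 Gy arrays of their genotype for B2m, H2-D1, both H2-K1 probes, H2-T23 and Tapbp, with B2m at 14.54 to 15.05 against 13.20 to 13.72 in WT mice.

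B2m, the light chain that every class I heavy chain needs to reach the surface, was the member with the largest difference in both genotypes by this scaling. B2m read 13.64, 13.72, 13.41, 13.37 and 13.20 log2 on the WT 0 Gy arrays, replicates 1 to 5. On the WT 7 Gy arrays it read 14.54, 14.58, 14.69, 15.05 and 14.90 log2. All 5 irradiated WT mice were above all 5 sham-irradiated ones, with replicates 4 and 5 highest at 7 Gy and lowest at 0 Gy. B2m rose by 1.29 ± 0.24 log2 (SE, n = 5 per group), or 2.44-fold, with an adjusted p of 0.00373. B2m values at 0 Gy in the mice labelled Il10-/- were 14.32, 14.37, 13.65, 13.57 and 14.05 log2. The 7 Gy values of that genotype were 15.29, 15.17, 14.88, 15.11 and 15.23 log2. Replicates 3 and 4 were lowest at 0 Gy, and here too the groups did not overlap. The rise was 1.15 ± 0.22 log2 (SE, n = 5 per group), or 2.21-fold, with an adjusted p of 0.00368. Within slides, B2m was higher at 7 Gy on 5 of 5, by 0.87 to 1.70 log2 in WT mice and by 0.80 to 1.55 log2 in the mice labelled Il10-/-. With the slide as a block the adjusted p was 0.0121 in WT mice, where p itself (0.00132) missed the threshold, and 0.00989 in the mice labelled Il10-/-, where B2m stayed called. Leaving out any 1 of the 10 arrays kept the call in both genotypes. Over all alternatives the adjusted p of B2m ranged from 0.000162 to 0.428 in WT mice (difference 1.15 to 1.99 log2) and from 0.000807 to 0.812 in the mice labelled Il10-/- (0.73 to 1.41 log2).

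H2-D1, a classical heavy chain, did not pass the call rule, although its groups did not overlap. H2-D1 read 12.62, 13.05, 12.82, 12.02 and 12.21 log2 at 0 Gy in WT mice. At 7 Gy it read 13.22, 13.54, 13.27, 13.58 and 13.96 log2. The lowest irradiated WT mouse was above the highest sham-irradiated one by a small margin, and replicates 4 and 5 were again lowest at 0 Gy. The difference was 0.97 log2 (95% interval 0.34 to 1.60; adjusted p 0.0302). H2-D1 values in the mice labelled Il10-/- were 13.42, 13.52, 12.81, 13.20 and 13.04 log2 at 0 Gy. They were 13.66, 14.22, 13.84, 14.20 and 14.08 log2 at 7 Gy. The groups did not overlap, and they differed by 0.80 log2 (0.34 to 1.26; adjusted p 0.0176). Within slides the difference was 0.45 to 1.75 log2 in WT mice and 0.24 to 1.03 log2 in the mice labelled Il10-/-. With the slide as a block, the adjusted p was 0.0491 and 0.0318, and over all alternatives it ranged from 0.00434 to 0.83 and from 0.00673 to 0.871.

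H2-K1, the other classical heavy chain, was read by 2 probes that correlated at r = 0.909 over the 20 arrays. H2-K1 by probe A_55_P2049647 read 12.18, 12.47, 12.52, 11.25 and 12.18 log2 at 0 Gy in WT mice. The same probe read 12.93, 13.27, 13.04, 12.87 and 13.34 log2 at 7 Gy. Replicate 4 was far below its group at 0 Gy, and the groups did not overlap. The difference was 0.97 log2 (0.32 to 1.62; adjusted p 0.0337), not called, and without WT 0 Gy replicate 4 and each other array in turn it ranged from 0.75 to 1.07 log2. This probe, in the mice labelled Il10-/-, read 12.70, 12.96, 12.53, 12.49 and 12.46 log2 at 0 Gy. After 7 Gy it read 13.22, 13.60, 13.39, 13.33 and 13.66 log2. Again without overlap, the difference was 0.81 log2 (0.40 to 1.23; p 0.00119, adjusted p 0.00991), just outside the call rule. With the slide as a block its adjusted p was 0.0328 in WT mice (range over alternatives 0.00375 to 0.922) and 0.0242 in the mice labelled Il10-/- (0.00327 to 0.859). Over all alternatives its difference was −0.23 to 1.61 log2 in WT mice and 0.38 to 1.05 log2 in the mice labelled Il10-/-. The WT value below 0 came with liver and heart covariates. The second probe, A_51_P198434, gave 1.02 log2 (0.34 to 1.70) in WT mice and 0.60 log2 (0.25 to 0.95) in the mice labelled Il10-/-, higher at 7 Gy on 5 of 5 slides in both.

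H2-T23 encodes Qa-1, which presents leader peptides of other class I heavy chains to an inhibitory receptor of natural killer cells. H2-T23 read 12.66, 12.80, 12.80, 11.98 and 12.31 log2 at 0 Gy in WT mice. It read 13.41, 13.70, 13.66, 13.57 and 14.07 log2 at 7 Gy. The groups did not overlap, replicate 4 being lowest at 0 Gy and replicate 5 highest at 7 Gy. H2-T23 rose by 1.17 ± 0.27 log2 (SE, n = 5 per group), or 2.25-fold, with an adjusted p of 0.00896. Its unadjusted p of 0.000991 was close to the threshold, and leaving out any 1 of the 10 WT arrays ended the call (p 0.00131 to 0.00344, difference 1.04 to 1.24 log2). For H2-T23 the 0 Gy arrays of the mice labelled Il10-/- read 13.12, 13.32, 12.98, 12.92 and 13.03 log2. The 7 Gy arrays read 13.73, 14.01, 14.07, 14.04 and 14.30 log2. These groups lay apart, with little spread at 0 Gy. The rise was 0.96 ± 0.19 log2 (SE, n = 5 per group), or 1.94-fold, with an adjusted p of 0.00393, and it stayed called without any 1 array. Within slides H2-T23 was higher at 7 Gy by 0.76 to 1.76 log2 in WT mice and by 0.61 to 1.27 log2 in the mice labelled Il10-/-. With the slide as a block the adjusted p was 0.0188 and 0.0165, with p above the call threshold in both. Over all alternatives it ranged from 0.000375 to 0.838 in WT mice (difference 0.42 to 1.75 log2) and from 0.00108 to 0.83 in the mice labelled Il10-/- (0.51 to 1.24 log2).

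Tap1 and Tap2 form the peptide transporter, and neither passed the test. Tap1 read 6.24, 6.34, 6.55, 4.73 and 5.53 log2 at 0 Gy in WT mice. At 7 Gy it read 5.57, 6.22, 6.78, 6.12 and 6.65 log2. The WT groups overlapped, the wide spread coming from the low replicates 4 and 5 at 0 Gy. The difference was 0.39 log2 with an interval of −0.46 to 1.25 log2 (adjusted p 0.49). Tap1 in the mice labelled Il10-/- read 6.26, 6.65, 6.31, 6.06 and 6.05 log2 at 0 Gy. It read 6.38, 7.19, 6.58, 6.73 and 6.65 log2 at 7 Gy. The irradiated and sham-irradiated mice overlapped, and the difference was 0.44 log2 (−0.03 to 0.91, adjusted p 0.16). Within slides Tap1 was higher at 7 Gy on 5 of 5 in this genotype, by 0.12 to 0.66 log2, and on 3 of 5 in WT mice. With the slide as a block its adjusted p was 0.121 in the mice labelled Il10-/-.

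Tap2, the partner of Tap1, gave differences below 0 by this scaling. Tap2 read 9.95, 10.34, 10.08, 9.15 and 9.32 log2 at 0 Gy in WT mice. It read 9.52, 9.63, 9.63, 9.96 and 9.65 log2 at 7 Gy. The irradiated mice lay inside the range of the sham-irradiated ones. The difference was −0.09 log2 with an interval of −0.73 to 0.55 log2 (adjusted p 0.847). Its sign turned without WT 0 Gy replicate 2 (0.05 log2), and it was 0.72 log2 after normexp background correction. Tap2 in the mice labelled Il10-/- read 10.46, 10.63, 9.96, 10.58 and 9.89 log2 at 0 Gy. It read 10.13, 10.38, 9.64, 10.33 and 9.94 log2 at 7 Gy. The groups overlapped almost fully, and the difference was −0.22 log2 (−0.74 to 0.30; adjusted p 0.533). Tap2 was higher at 7 Gy on 2 of 5 slides in WT mice and on 1 of 5 in the mice labelled Il10-/-.

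Tapasin, encoded by Tapbp, bridges the transporter and the empty class I molecule. Tapbp read 9.64, 9.89, 9.74, 8.92 and 9.33 log2 at 0 Gy in WT mice. It read 10.36, 10.42, 10.46, 10.22 and 10.71 log2 at 7 Gy. The WT groups did not overlap, and replicates 4 and 5 were lowest at 0 Gy as they were for H2-D1 and Tap1. The difference of 0.93 log2 (0.34 to 1.51; adjusted p 0.0259) was not called. Tapbp in the mice labelled Il10-/- read 10.14, 10.20, 9.78, 9.99 and 9.87 log2 at 0 Gy. It read 10.32, 10.57, 10.62, 10.83 and 10.86 log2 at 7 Gy. These groups did not overlap either, and the difference was 0.64 log2 (0.23 to 1.06; adjusted p 0.0284), also not called. With the slide as a block the adjusted p was 0.0344 in WT mice (range over alternatives 0.00251 to 0.981) and 0.0586 in the mice labelled Il10-/- (0.0115 to 0.918).

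Calreticulin is a calcium-binding chaperone of many glycoproteins and a part of the loading complex. Calr read 9.97, 10.32, 10.01, 9.90 and 10.02 log2 at 0 Gy in WT mice. It read 11.29, 11.32, 10.93, 10.86 and 11.78 log2 at 7 Gy. Every irradiated WT mouse was above every sham-irradiated one, with replicate 2 high at 0 Gy and replicate 5 high at 7 Gy. Calr rose by 1.19 ± 0.26 log2 (SE, n = 5 per group), or 2.29-fold, with an adjusted p of 0.00736. The call was kept without WT 7 Gy replicate 4 and was lost without any 1 of the other 9 WT arrays (difference 1.06 to 1.29 log2 and p 0.000891 to 0.00245 over all 10). With the slide as a block the adjusted p was 0.014, with p (0.00175) above the call threshold, and over all alternatives the adjusted p ranged from 0.00065 to 0.841 (difference 0.42 to 1.58 log2). Calr in the mice labelled Il10-/- read 10.39, 10.42, 10.20, 10.89 and 10.69 log2 at 0 Gy. It read 10.49, 10.69, 11.21, 10.57 and 11.21 log2 at 7 Gy. Here the groups overlapped, and the difference was 0.32 log2 (−0.19 to 0.82; adjusted p 0.346).

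Erap1, the aminopeptidase that trims peptides to length, was near background on most arrays. Its difference was 0.66 log2 (−0.14 to 1.46) in WT mice and −0.24 log2 (−1.22 to 0.74) in the mice labelled Il10-/-. Within slides Erap1 was higher at 7 Gy on 5 of 5 in WT mice, by 0.19 to 1.21 log2, and on 3 of 5 in the mice labelled Il10-/-. A single array, Il10-/- 0 Gy replicate 3 at 5.22 log2, lay above all others for Erap1, and without it the second difference was 0.17 log2. Nlrc5 was read by 2 probes that did not follow each other (r = −0.147 over 20 arrays). Probe A_55_P2016034, well above background on 19 arrays, gave 0.46 log2 (−0.28 to 1.21) in WT mice and 0.34 log2 (−0.03 to 0.72) in the mice labelled Il10-/-. Probe A_66_P113043 gave −0.27 log2 (−1.12 to 0.57) and 0.01 log2 (−0.51 to 0.53). None of these intervals shows a direction.

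**Figure D2:**
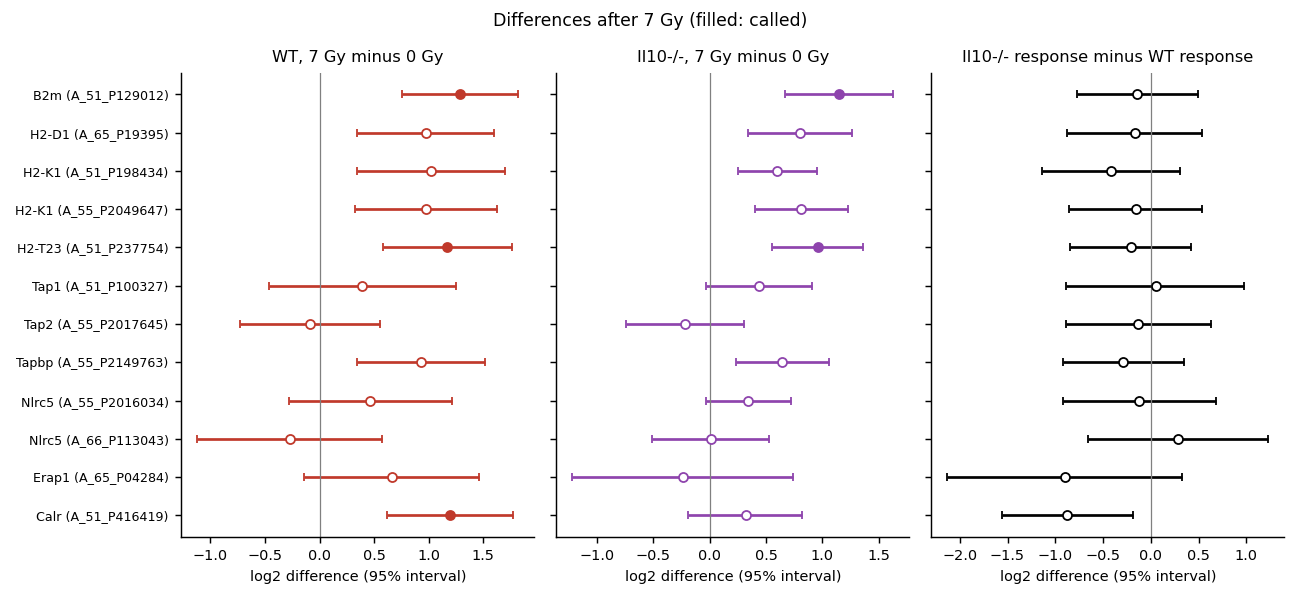
Log2 difference with 95% interval (horizontal axis) for the 12 member probes (vertical axis) in WT mice, in mice labelled Il10-/- and between the responses of these genotypes; filled points passed the call rule. B2m lies at 1.29 and 1.15 log2 in the first panels and Tap2 at −0.09 and −0.22 log2, and no point is filled in the last panel.

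Because a scaling constant cancels in a ratio taken within an array, the members were also set against Tap2 array by array, a denominator chosen after its values were seen, with the mean of the 0 Gy arrays of the genotype at 0. B2m over Tap2 was 1.32, 1.25, 1.36, 1.39 and 1.55 log2 on the WT 7 Gy arrays, and −0.36 to 0.52 log2 on the WT 0 Gy arrays. In the mice labelled Il10-/- it was 1.47, 1.10, 1.55, 1.10 and 1.61 log2 at 7 Gy, and −0.70 to 0.47 log2 at 0 Gy. Relative to Tap2, the light chain was thus higher on every irradiated array of both genotypes. The same ratio shifted by 1.06 and 1.02 log2 for H2-D1 (WT, then Il10-/-), without overlap in either genotype. For H2-K1 (A_51_P198434) it shifted by 1.11 and 0.82 log2, also without overlap. H2-T23 over Tap2 shifted by 1.26 and 1.18 log2, and Tapbp over Tap2 by 1.02 and 0.86 log2, each without overlap in both genotypes. Calr over Tap2 shifted by 1.28 log2 without overlap in WT mice and by 0.54 log2 with overlap in the mice labelled Il10-/-. Tap1 over Tap2 shifted by 0.48 and 0.66 log2 with overlap in both. Against the other subunit, Tap1, added after the ratios over Tap2 were seen, all of these genes overlapped between doses in both genotypes. B2m over Tap1 was −0.72 to 1.05 log2 at 0 Gy and 0.32 to 1.38 log2 at 7 Gy in WT mice, and −0.38 to 0.33 and 0.25 to 1.18 log2 in the mice labelled Il10-/-. The separation thus holds against Tap2 and not against Tap1. Ratios over Tap2 show that these genes and Tap2 differed unequally between doses, not that Tap2 stayed as it was. Tap2 itself differed by −0.09 log2 in WT mice and −0.22 log2 in the mice labelled Il10-/-, which enlarges every shift over it. What share of all features separates by dose in this ratio was not determined, so the lack of overlap is not shown to be particular to these genes.

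**Figure D3:**
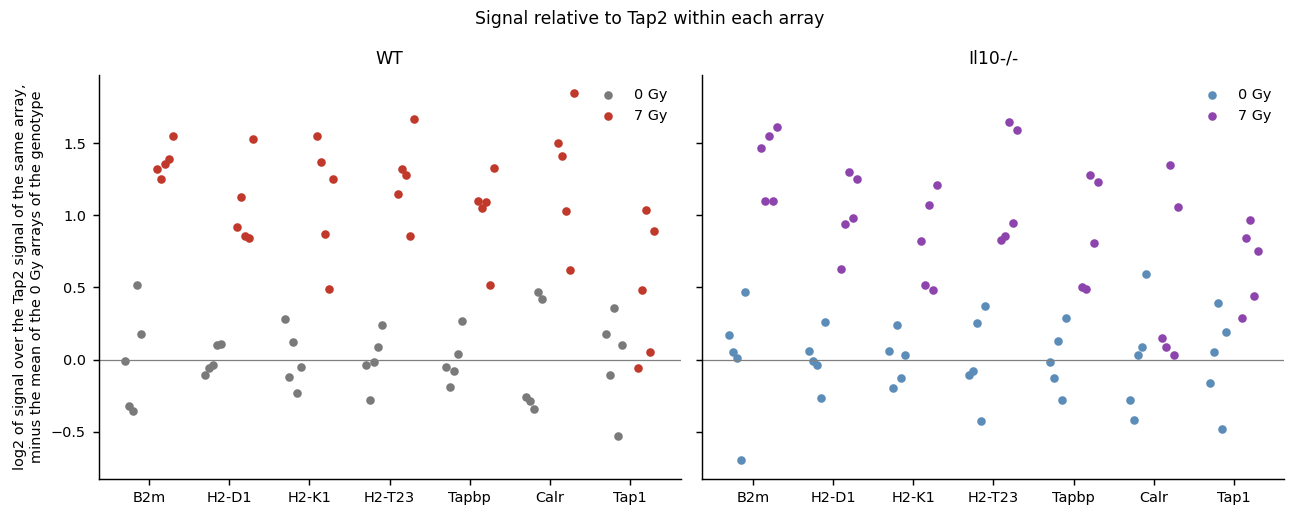
Log2 of signal over the Tap2 signal of the same array, minus the mean of the 0 Gy arrays of the genotype (vertical axis), for 7 genes (horizontal axis) in WT mice and in mice labelled Il10-/-; points are arrays. For B2m, H2-D1, H2-K1, H2-T23 and Tapbp all 7 Gy points lie above all 0 Gy points, with B2m at 1.25 to 1.55 log2 in WT mice, whereas Tap1 points overlap. The share of all features that separate in this ratio was not determined.

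Mice of the different genotypes were compared at each dose to ask what the lack of Il10 changes at baseline and after exposure. At 0 Gy, 0 of 10 tested member probes were called by limma, where 0.491% of all features were; of these 10, 1 (H2-D1) had an unadjusted p below 0.05. H2-K1 A_51_P198434, in the model without the second filter, had a p of 0.0455 (0.67 log2; adjusted p 0.277). Still, 11 of 12 probes were higher in the mice labelled Il10-/-, with a median of 0.53 log2 beside 0.09 log2 over all genes measured. Platelet markers had a median of 0.62 log2 in this comparison (8 of 8 above 0) and liver genes 3.48 log2 (21 of 21). B cell and erythroid markers had medians of −0.52 and −0.30 log2. The part of these cells and tissues in the members' values was not tested. H2-D1 differed by 0.65 log2 (0.03 to 1.27; adjusted p 0.241). Without overlap between genotypes at 0 Gy was 1 of 10 tested member probes, H2-T23 (12.92 to 13.32 against 11.98 to 12.80 log2), where 5.01% of all features had every array of the mice labelled Il10-/- above every WT array, so that 1 probe is little beside that share. Its difference of 0.56 log2 had an adjusted p of 0.257, so that the test across all features did not separate the genotypes. B2m differed by 0.52 log2 (−0.05 to 1.10; adjusted p 0.289). Within slides B2m, both H2-K1 probes, H2-T23, Tapbp, Calr and Nlrc5 A_55_P2016034 were higher in the mice labelled Il10-/- on 5 of 5. Nlrc5 A_66_P113043 was higher on 1 of 5. With the slide as a block 0 of 10 were called. Scaling by array medians moved the median over all tested features in this comparison to 0.36 log2, from 0.01 log2, and normexp correction moved it to 0.46 log2.

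After 7 Gy, 0 of 10 tested member probes were called between genotypes by limma, beside 0.0182% of all features, and of these 10, 1 (H2-D1 again) had an unadjusted p below 0.05. Within slides B2m, H2-D1, both H2-K1 probes, H2-T23 and Tap2 were higher in the mice labelled Il10-/- on 5 of 5, and Calr on 1 of 5. With the slide as a block 0 of 10 were called. Nlrc5 A_55_P2016034, in the model without the second filter, had a p of 0.025 (0.52 log2, 0.08 to 0.96; adjusted p 0.305). Of the 12 probes, 9 were higher in the mice labelled Il10-/-, with a median of 0.35 log2 beside 0.01 log2 over all genes measured. Platelet markers had a median of 0.78 log2 (8 of 8 above 0), neutrophil markers 1.29 log2 (8 of 8) and T cell markers 0.69 log2 (10 of 10). B cell markers, monocyte markers and liver genes had medians of −0.28, −0.38 and −1.08 log2. The part of these cells and tissues in the members' values was not tested. B2m differed by 0.38 log2 (−0.04 to 0.80; adjusted p 0.414) and H2-D1 by 0.48 log2 (0.00 to 0.96; adjusted p 0.374). Calr pointed the other way, at −0.40 log2 (−0.96 to 0.15; adjusted p 0.512). After normexp background correction Tap1 did not pass the second filter and was not tested, and the other 8 of these 9 probes turned to values below 0, from −0.11 to −0.52 log2, as the median of all tested features went to −0.50 log2.

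Whether the genotypes respond differently was tested by the difference of their 7 Gy responses over all 20 arrays. No feature of the array was called (0.0%), with 1233 of 16503 at an unadjusted p below 0.05, and 0 of 10 member probes were called by limma. For B2m the response of the mice labelled Il10-/- minus that of WT mice was −0.14 log2 with an interval of −0.77 to 0.49 log2. For H2-T23 it was −0.21 log2 (−0.85 to 0.42), and for H2-D1 −0.17 log2 (−0.88 to 0.54). These intervals span 0 and are wide beside the responses themselves. Calr had the lowest p of the members, 0.0151, with a difference of −0.88 log2 (−1.56 to −0.19), but the adjusted p over all features was 0.634. Calr was thus called in WT mice and not in the mice labelled Il10-/-, and its responses are not shown to differ.

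Further genes of the same pathway were described from lists chosen by function, taking the brightest probe of each gene. Of 26 other class I heavy chains and class I-like genes, 17 were measured and 16 tested. In WT mice 4 were called higher and 0 lower, beside 6.76% of all tested features called higher, with a median of 1.24 log2 over the 17 measured genes and −0.05 log2 over all genes. The mice labelled Il10-/- had 5 called higher and 0 lower, beside 5.70% of all features, with a median of 0.89 log2 and 0.04 log2 over all genes. The counts depended on scaling: the WT count became 2 under array median, 3 at the 75th percentile and under quantile normalization, and 1 after normexp correction. For the mice labelled Il10-/- it became 2, 2, 5 and 0 in the order array median, 75th percentile, quantile and normexp. With liver and heart covariates 0 were called in WT mice and 1 in the mice labelled Il10-/-. Across the scalings tried, these medians stayed above 0, from 1.10 to 1.36 log2 and from 0.30 to 0.89 log2. The heavy chain gene H2-Q5 rose in both genotypes, from 8.35 ± 0.46 to 10.10 ± 0.28 log2 (SD, n = 5) in WT mice and from 8.95 ± 0.23 to 10.25 ± 0.32 log2 in the mice labelled Il10-/-. Its adjusted p was 0.00211 and 0.00183. H2-T9 rose by 1.42 log2 in WT mice and by 1.10 log2 in the mice labelled Il10-/-. H2-T24 was also called in both, with 1.24 and 1.79 log2. The WT call of H2-T24 and the Il10-/- call of H2-T9 were lost under each of the 4 other scalings. Fcgrt, which encodes the class I-like Fc receptor that protects IgG and albumin, rose 4.61-fold in WT mice (adjusted p 0.00277) and was not called in the mice labelled Il10-/- (1.02 log2). H2-Q2 and H2-Q8 completed the calls in the mice labelled Il10-/-, at 0.89 and 0.90 log2. A block for the slide left WT mice with 4 calls, with H2-Bl in place of H2-T24, and the mice labelled Il10-/- with 1, H2-Q5. With replicates 1 and 2 averaged, H2-Q5 and Fcgrt stayed called in WT mice, and H2-Q5 and H2-T24 in the mice labelled Il10-/-. H2-Q5 kept its call under all 4 other scalings in WT mice and lost it with liver and heart covariates, while in the mice labelled Il10-/- it lost it only after normexp correction. The WT fit with covariates called 7 features in all. Normexp left 343 calls in all in WT mice and 1 in the mice labelled Il10-/-. Sequence shared between heavy chains means that these probes may not be separate readings.

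Chaperones and entry channels of the endoplasmic reticulum gave 2 calls higher and 0 lower in WT mice, out of 11 genes measured and 6 tested, beside 6.76% of all tested features called higher. The protein disulfide isomerase P4hb rose from 7.26 ± 0.63 to 9.57 ± 0.80 log2 (SD, n = 5; adjusted p 0.0035). Pdia3, the partner of tapasin in the loading complex, rose from 7.48 ± 0.81 to 9.24 ± 0.42 log2 (SD, n = 5; adjusted p 0.00837), a call lost under each of the 4 other scalings, with the slide as a block and with replicates 1 and 2 averaged. P4hb kept its call in each of these settings, but with liver and heart covariates neither gene was called. That fit called 7 features in all in WT mice, 0 of them higher, so this loss is not particular to these genes. Liver genes had a median of 6.84 log2 in the same comparison, and their part in these calls was not tested further. The list median was 0.99 log2 in WT mice. In the mice labelled Il10-/- 0 were called by limma, and the list median of 0.32 log2 turned to −0.15 log2 after normexp correction. Genes that generate and trim peptides in the cytosol, among them the immunoproteasome subunits Psmb8, Psmb9 and Psmb10, gave 0 calls in either genotype out of 9 measured and 2 tested, with medians of 0.40 and 0.20 log2, the latter turning to −0.23 log2 after normexp correction. These immunoproteasome subunits did not pass the second filter and were not tested. The aminopeptidase gene Lap3 was called higher in WT mice (2.69 log2) when the slide was a block, and also passed an adjusted p below 0.05 alone.

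Of 11 measured genes for regulators of class I transcription, 7 were tested. Irf8, a transcription factor of B cells and the monocyte lineage, changed by −1.86 log2 in WT mice (adjusted p 0.00184) and by −1.88 log2 in the mice labelled Il10-/- (adjusted p 0.000227). The Irf8 call was lost after normexp correction in both genotypes, and with liver and heart covariates in WT mice. Normexp left 343 of 9613 features called in WT mice and 1 of 9613 in the mice labelled Il10-/-. Liver and heart covariates left 7 of 16503 in WT mice. A call lost in these fits, for this or another gene, thus says little about the gene itself. Stat2, which carries interferon signals to the nucleus, rose by 1.09 log2 in the mice labelled Il10-/- (adjusted p 0.00404) and was not called in WT mice (1.19 log2). The Stat2 call was lost with the slide as a block, with replicates 1 and 2 averaged, and under array median, 75th percentile and normexp. The list medians were 0.03 and −0.07 log2, close to those of all genes, and the first turned to −0.10 log2 at the 75th percentile and −0.27 log2 under quantile normalization. Interferon receptors and their kinases gave 0 calls by limma out of 7 measured and 1 tested, with medians of −0.04 and −0.07 log2, the first of which turned to 0.05 log2 with array medians and 0.39 log2 after normexp correction. Ifnar1 was called lower in the mice labelled Il10-/- without the second filter, and at an adjusted p below 0.05 alone. On the side of the reader of class I, the coreceptor gene Cd8a changed by −3.12 log2 in WT mice (adjusted p 0.00189) and by −1.87 log2 in the mice labelled Il10-/- (adjusted p 0.00149), while Cd8b1 was not called (−0.52 and −0.73 log2). The Cd8a call was lost after normexp correction in both genotypes, where the median of the 2 genes went from −1.82 to −0.09 log2 in WT mice and from −1.30 to −0.73 log2 in the mice labelled Il10-/-, and with liver and heart covariates in WT mice. Cd8a averaged 3.01 log2 at 7 Gy in WT mice, and in both genotypes it was not well above background on all arrays, so the size of its difference rests on dim spots.

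**Figure D4:**
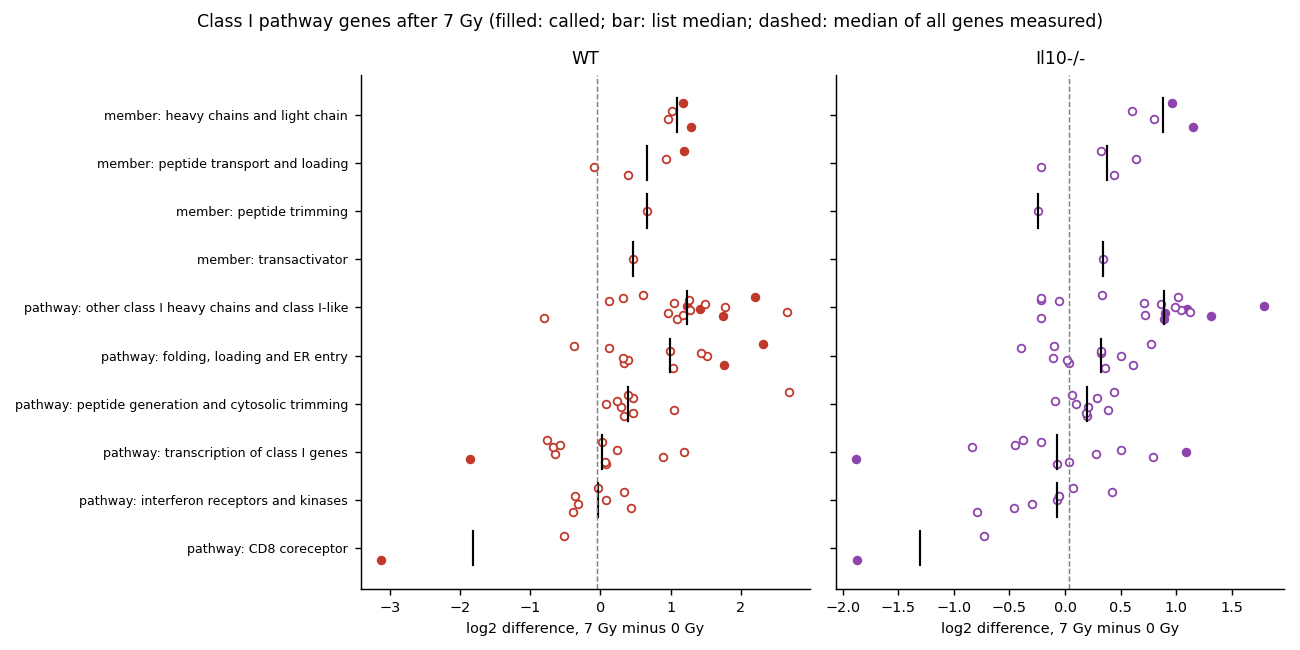
Log2 difference between 7 Gy and 0 Gy (horizontal axis, separate scales) for each measured gene of the member and pathway lists (vertical axis) in WT mice and in mice labelled Il10-/-; filled points were called, bars are list medians and the dashed line is the median of all genes measured. The other class I heavy chains have medians of 1.24 and 0.89 log2, and Cd8a lies lowest in WT mice, at −3.12 log2.

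Markers of blood cell types differed with dose as well, most of all those of B cells. Of the B cell markers 8 of 9 measured were called lower and 0 higher in both genotypes, and the log2 of their summed signal went from 13.92, 13.89, 13.61, 12.80 and 13.63 to 10.25, 10.14, 10.75, 10.58 and 10.93 in WT mice. The same sum in the mice labelled Il10-/- went from 13.05, 13.05, 13.43, 13.56 and 12.29 to 9.73, 9.90, 10.40, 9.84 and 9.61 log2. By comparison 718 and 922 of all 16503 tested features were called lower. After normexp correction 1 B cell marker was called in WT mice and 0 in the mice labelled Il10-/-, with medians of −1.49 and −1.35 log2 in place of −3.00 and −3.38 log2, and with liver and heart covariates 0 were called in WT mice and 6 in the mice labelled Il10-/-. Over all features, normexp left 343 calls in WT mice and 1 in the mice labelled Il10-/-, and the covariates left 7 in WT mice. Cd79b was the brightest, and Blk was not well above background on most arrays. B cells bear class I, and their markers were lower in the same mice in which B2m and H2-T23 were higher.

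T cell markers, with Lck brightest, were measured for 10 genes and tested for 7. Of these markers 2 were called lower in WT mice (Cd8a and Trat1) and 1 in the mice labelled Il10-/- (Cd8a). Their summed signal ranged from 13.10 to 13.50 log2 at 0 Gy and from 12.21 to 13.26 log2 at 7 Gy in WT mice, and from 13.32 to 13.53 and from 12.93 to 13.36 log2 in the mice labelled Il10-/-. Natural killer markers gave 0 calls by limma out of 8 measured and 7 tested, with Gzma brightest. At an adjusted p below 0.05 alone, 2 were higher in WT mice (Gzma and Klrb1c) and 0 in the mice labelled Il10-/-. Natural killer sums were 11.41 to 11.97 and 12.09 to 12.75 log2 in WT mice, without overlap between doses. They were 11.58 to 13.01 and 12.17 to 13.08 log2 in the mice labelled Il10-/-. Monocyte markers gave 1 lower call in WT mice (Cx3cr1) and 2 in the mice labelled Il10-/- (Ccr2 and Cx3cr1), out of 7 measured and 6 tested, with Csf1r brightest and sums between 11.57 and 12.94 log2 on all arrays. Neutrophil markers gave 0 calls by dose by limma out of 8, with S100a9 brightest. Their sums were 15.21 to 16.52 log2 in WT mice and 16.37 to 18.37 log2 in the mice labelled Il10-/-, where Il1r2, Retnlg and S100a8 were called higher than in WT mice at 0 Gy, with a list median of 1.67 log2 between these groups beside 0.09 log2 over all genes. With replicates 1 and 2 averaged, WT mice kept 1 T cell call (Cd8a), and the mice labelled Il10-/- had 7 B cell calls in place of 8 and 1 monocyte call (Cx3cr1) in place of 2. After normexp correction 0 T cell and 0 monocyte markers were called by limma in either genotype. Liver and heart covariates left 0 calls of either list in WT mice, and Cd8a and Cx3cr1 in the mice labelled Il10-/-. The normexp fits and the WT fit with covariates called few features of any kind, as given for the B cell markers.

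Platelet markers, which come from cells rich in class I, had medians of 1.19 log2 in WT mice, with 1 of 8 called higher (Gp1bb), and of 1.35 log2 in the mice labelled Il10-/-, with 0 called. At an adjusted p below 0.05 alone, the looser rule also given for the members, 8 of 8 were higher in WT mice and 3 of 8 in the mice labelled Il10-/-. By the call rule itself, the WT count of 1 became 6 without the second filter, 7 among features well above background on all arrays and 4 under quantile normalization. It became 0 under array median and 75th percentile, with the slide as a block, with replicates 1 and 2 averaged and with liver and heart covariates. Their sum went from 16.56, 16.48, 16.19, 16.86 and 15.98 to 17.39, 17.35, 17.85, 18.20 and 18.06 log2 in WT mice. In the mice labelled Il10-/- it went from 17.79, 17.75, 16.30, 15.63 and 17.65 to 18.19, 18.12, 18.35, 18.54 and 18.30 log2. Pf4 was brightest by its mean over all 20 arrays. Within groups B2m sometimes went with this sum and sometimes not. Replicate 4 at 7 Gy in WT mice was highest in both, and Il10-/- 0 Gy replicates 3 and 4 were lowest in both. Yet WT 0 Gy replicate 4 had the highest platelet sum and the second lowest B2m (13.37 log2), and so did Il10-/- 7 Gy replicate 4 (15.11 log2). Erythroid markers were called lower for 3 genes and higher for 1 (Epor) in WT mice, and lower for 4 in the mice labelled Il10-/- (3 with replicates 1 and 2 averaged or the slide as a block), out of 10 measured and 9 tested, with Hba-a1 brightest. These calls depended on background correction and covariates: after normexp correction 2 were lower and 0 higher in WT mice and 0 were called in the mice labelled Il10-/-. Quantile normalization left 3 lower and 0 higher in WT mice, and liver and heart covariates left 0 calls in WT mice and 3 in the mice labelled Il10-/-. Few features of any kind were called in the normexp fits and in the WT fit with covariates, as given for the B cell markers. Their sums were 19.55, 19.60, 19.37, 21.03 and 20.81 log2 at 0 Gy and 19.42, 19.33, 19.69, 20.56 and 20.21 log2 at 7 Gy in WT mice. For the mice labelled Il10-/- they were 19.09 to 20.03 and 19.31 to 20.45 log2. The WT 0 Gy replicates 4 and 5, highest in this sum, are the arrays lowest for many members in their group. These are B2m, H2-D1, H2-K1 (A_51_P198434), H2-T23, Tap1, Tap2, Tapbp, Nlrc5 (A_55_P2016034) and Erap1. At 7 Gy, however, replicates 4 and 5 of WT mice were again highest in this sum. There they were also highest for B2m (15.05 and 14.90 log2) and H2-D1 (13.58 and 13.96 log2). The part of platelets, red cells and their precursors in the members' values was not tested.

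Transcripts of liver and heart muscle, which do not come from blood cells, were also present. Of 21 measured liver genes 10 were called higher in WT mice and 0 in the mice labelled Il10-/-, with Trf brightest, while Apoa1, Cps1 and Tdo2 were not well above background on most arrays. With replicates 1 and 2 averaged, 3 liver genes were called in WT mice (Alb, Hpx and Serpina1a). The WT liver count depended on most choices, being 14 under array median, 11 under quantile normalization and with the slide as a block, 3 after normexp correction, 5 in the authors' table, 6 without the second filter or with all 20 arrays in 1 model, and 2 among features well above background on all arrays. The summed liver signal was 11.68, 11.70, 11.69, 11.95 and 11.98 log2 at 0 Gy and 20.16, 20.12, 17.48, 12.73 and 14.69 log2 at 7 Gy in WT mice. In the mice labelled Il10-/- it was 11.84, 11.81, 17.24, 18.20 and 11.89 log2 at 0 Gy and 18.42, 18.41, 12.75, 16.88 and 13.82 log2 at 7 Gy. B2m followed this sum in some groups and not in others. WT 7 Gy replicate 4, with the lowest liver sum of its group, had its highest B2m signal (15.05 log2), and Il10-/- 0 Gy replicates 3 and 4, with the highest liver sums of theirs, had its lowest (13.65 and 13.57 log2). In the Il10-/- 7 Gy group, in contrast, replicate 1 was highest and replicate 3 lowest in both the liver sum and B2m (15.29 and 14.88 log2). Heart genes gave 0 calls in WT mice by limma and 4 higher with 1 lower in the mice labelled Il10-/-, out of 10 measured, with Myl3 brightest and Myl7, Nppb, Ryr2, Csrp3 and Ckm not well above background on most arrays. The slide as a block left 1 higher (Nppa) and 1 lower (Myl4) in the mice labelled Il10-/-, and 0 heart genes were called by limma with replicates 1 and 2 averaged, after normexp correction or with all 20 arrays in 1 model. Under array median and 75th percentile 6 were higher and 1 lower. Their sums were 9.30 to 11.82 and 9.72 to 16.45 log2 in WT mice, and 8.74 to 11.49 and 10.08 to 16.09 log2 in the mice labelled Il10-/-. With the mean signals of both lists as covariates, 0 of 10 member probes were called in either genotype. The B2m difference was then 1.65 log2 in WT mice (adjusted p 0.428) and 1.14 log2 in the mice labelled Il10-/- (adjusted p 0.0832), within the ranges given for B2m. In WT mice the same covariates left H2-T23 at 0.42 log2 (adjusted p 0.838) and Calr at 0.42 log2 (adjusted p 0.841). There 7 features in all were called, 0 of them higher. In the mice labelled Il10-/- H2-T23 was 1.24 log2 with these covariates (adjusted p 0.0305), also not called.

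**Figure D5:**
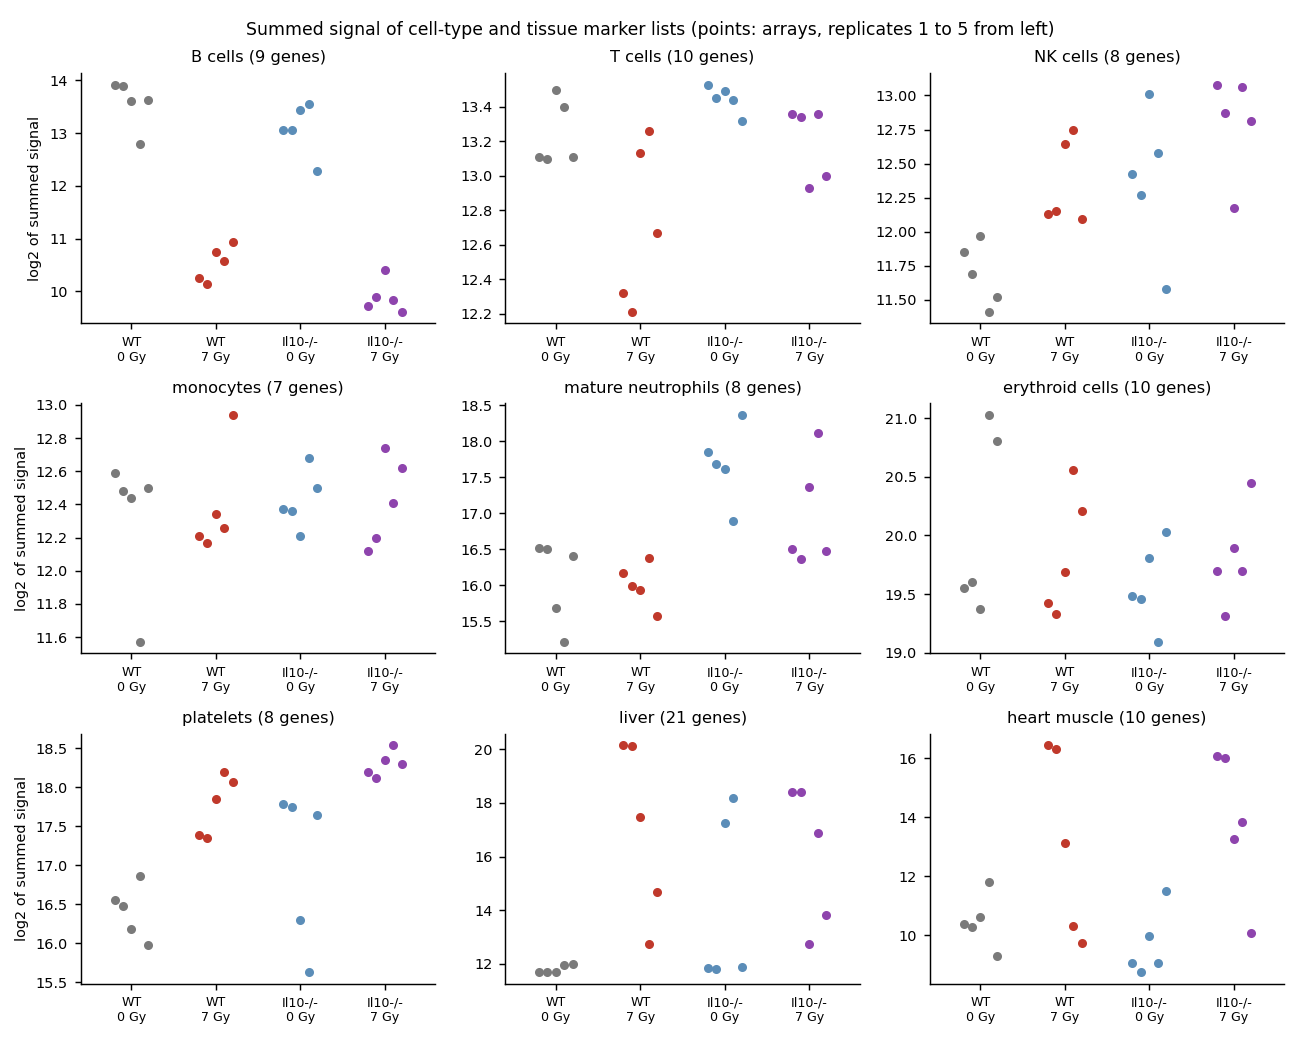
Log2 of summed signal (vertical axis) of 9 marker lists by group (horizontal axis); points are arrays, replicates 1 to 5 from left. The B cell sum is lower on all 7 Gy arrays than on any 0 Gy array of the same genotype, and the liver sum spans 12.73 to 20.16 log2 among WT 7 Gy arrays.

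Over the 20 arrays, which share groups and scaling, the members correlated with the heavy chains to different degrees. Pearson correlations between H2-T23 and B2m (0.931), H2-D1 (0.953) and Tapbp (0.978) were high, and H2-D1 correlated with B2m at 0.902. H2-T23 correlated with Calr at 0.764 and with Tap1 at 0.728, while H2-D1 correlated with Calr at 0.676, with Tap1 at 0.762 and with Nlrc5 at 0.741. Tap2 correlated with B2m at 0.159, with H2-T23 at 0.201, with Tap1 at 0.575 and with Nlrc5 (A_55_P2016034) at 0.691. Nlrc5 was most closely correlated, among the members, with Tap1 (0.832). Tapasin thus followed the heavy chains it serves more closely than either transporter subunit did, as a description of these arrays.

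Over the 20 arrays 16465 features were compared, named and unnamed. Among those of other named genes, the features most like B2m were Snx10 (r = 0.985) and Gnptg (0.98). For H2-T23 they were H2-Q2 (0.99) and Sdf4 (0.986), and for Tapbp they were H2-T23 (0.978) and Sdf4 (0.975). H2-D1 was most like Pcsk7 (0.961) and H2-Q2 (0.957), and H2-K1 like St7l (0.969) and Emc7 (0.96). Features most like Calr were Man2b2 (0.946) and Rai14 (0.931). Tap1 was most like Ier5 (0.927) and Hsdl1 (0.913), and Tap2 like Wdr82 (0.91) and Gimap4 (0.893). Nlrc5 was most like Tnfsf10 (0.942) and Chsy1 (0.94), and Erap1 like Btf3l4 (0.843) and Csnk2a1 (0.838).

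Class I promoters are known for a kappa B element, an interferon response element and a Y box, and these letters were looked for on both strands in the 250 bases before each start in the RefSeq promoter table (GRCm38.p6). It has entries for 8 of 10 members with 9 start sites and none for Nlrc5 and Tap2. The promoters of the light chain and the heavy chains, the genes these elements are known from, are printed with matches in capitals: GAAANNGAA (interferon response), GGGATTCCC (kappa B) and CCAAT (Y box), or their reverse complements.
B2m, chr2:122147437-122147686, plus strand: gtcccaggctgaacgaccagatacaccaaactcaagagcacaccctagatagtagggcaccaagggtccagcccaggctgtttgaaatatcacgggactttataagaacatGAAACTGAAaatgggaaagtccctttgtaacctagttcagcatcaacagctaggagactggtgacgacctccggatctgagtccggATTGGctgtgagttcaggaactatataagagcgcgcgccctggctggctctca
H2-D1, chr17:35262844-35263093, plus strand: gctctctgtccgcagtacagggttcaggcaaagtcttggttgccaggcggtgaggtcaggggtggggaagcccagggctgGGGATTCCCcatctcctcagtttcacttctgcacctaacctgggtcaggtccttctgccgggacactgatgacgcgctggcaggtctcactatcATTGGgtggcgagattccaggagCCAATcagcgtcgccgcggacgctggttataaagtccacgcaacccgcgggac
H2-K1, chr17:34000348-34000597, minus strand: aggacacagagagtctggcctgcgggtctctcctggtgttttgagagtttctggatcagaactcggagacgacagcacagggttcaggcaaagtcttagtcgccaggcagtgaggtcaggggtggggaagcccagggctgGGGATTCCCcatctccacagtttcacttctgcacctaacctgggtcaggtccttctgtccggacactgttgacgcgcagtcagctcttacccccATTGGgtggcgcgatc
H2-T23, chr17:36032702-36032951, minus strand: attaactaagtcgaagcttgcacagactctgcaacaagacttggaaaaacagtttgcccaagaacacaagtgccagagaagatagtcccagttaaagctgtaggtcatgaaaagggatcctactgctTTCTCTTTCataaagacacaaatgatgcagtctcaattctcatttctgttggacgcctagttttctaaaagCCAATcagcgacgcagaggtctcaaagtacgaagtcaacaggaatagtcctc
GAAANNGAA was found for 3 members (B2m, H2-T23 and Erap1) and in 7.13% of 32851 promoters. The printed H2-D1 and H2-K1 promoters hold tttcacttc after the kappa B match. On the other strand this has GAA before GAAA, the searched parts in the other order, and it was not counted. The count of 3 therefore does not show that other members lack an interferon response element. GGGATTCCC was found for 2 (H2-D1 and H2-K1) and in 0.301% of promoters. CCAAT was found for 7 members and in 33.8% of promoters, and TTCNNNGAA, the gamma-activated letters, for 0 members and in 7.02%. The kappa B letters lie 170 to 162 bases before the start of H2-D1 and 110 to 102 bases before the printed start of H2-K1. A match describes letters in this window and is not evidence that a factor binds there.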

How the data were processed

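Whole-blood RNA of 20 mice (4 groups of 5) was measured on single-colour Agilent arrays. Per the file headers, Feature Extraction 12.0.2.2 gave the background-subtracted intensity of each spot, and the labels name version 10.7. The authors' own table holds log2 values from BRB-ArrayTools 4.3.2. Here log2 intensities were averaged over repeated spots without outlier spots, and each array was scaled by its median distance from Il10-/- 0 Gy replicate 3. The constants differed from those of the authors' table by at most 0.0094 log2. Features at background or outlying on 25% or more of the arrays, and those changing under 1.5-fold on over 80% of them, were removed. Pairs of groups were compared with limma 3.58.1 in R 4.3.3, and the difference of responses over all 20 arrays, with p adjusted over 16503 features. The code was checked on simulated data. Tables and plots used pandas 2.3.3, numpy 2.4.6, scipy 1.17.1 and matplotlib 3.10.9.

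Named are all members, Il10, the called genes of each pathway list (at most the 3 largest rises and falls), the 2 features most like each member and the brightest gene of each marker list; other genes were named after their values were seen. Members and lists were chosen with earlier results of these data known. The number of arrays limits the precision. Alternatives were the array median, 75th percentile and quantile scaling, normexp background correction (offset 50), the authors' table, other filters and call rule, all 20 arrays in 1 model, replicate number as a block, replicates 1 and 2 averaged, liver and heart covariates, and each array left out.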

Additional observations from a re-analysis of the deposited data

Results flagged for a closer look

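In 2 of 48 groups (12 member probes in 4 groups of 5 arrays) an end value lay far from its nearest neighbour relative to the range of the group; chance does this in about 1 in 20 groups. H2-K1 (A_55_P2049647) read 11.25 log2 in WT 0 Gy replicate 4, with 12.18 log2 next, a gap of 0.733 of the range. Calr read 10.32 log2 in WT 0 Gy replicate 2, with 10.02 log2 next, a gap of 0.718 of the range.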

How the results depend on the processing

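Counts of member probes called at 7 Gy against 0 Gy moved with most settings, and the cause was not tested except where stated. In WT mice the count of 3 became 0 under array median, 75th percentile and normexp, 1 under quantile normalization (Calr did not pass the 1.5-fold filter at the 75th percentile and was not tested there), 6 with all 20 arrays in 1 model, 0 with replicate number as a block, 0 with replicates 1 and 2 averaged (fewer samples), 0 with liver and heart covariates, 6 at an adjusted p under 0.05 alone, and 1 to 2 without each array. In mice labelled Il10-/- the count of 2 became 0 under array median, 75th percentile and normexp, 4 under quantile normalization, 1 with the replicate block, 0 with replicates 1 and 2 averaged, 0 with covariates and 5 at an adjusted p under 0.05 alone, and stayed 2 without each array. The authors' table gave 3 and 2, and the other filters 3 and 3. All counts between genotypes and of the difference of responses stayed 0.

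Same-numbered replicates correlated at −0.665 to 0.687 in their deviations from group means, and 0 of 6 pairs of groups had all 5 above 0.1, so the main model has no block. Between WT 0 Gy and WT 7 Gy the correlations were 0.265, 0.321, 0.185, 0.329 and 0.068 for replicates 1 to 5, all above 0. In that comparison the replicate block ended all 3 member calls.

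Medians over genes measured moved from −0.05 log2 to −0.18 (75th percentile), 0.04 (array median) and 0.02 (normexp) in WT mice, and from 0.04 log2 to −0.11 (array median and normexp), −0.08 (75th percentile) and −0.15 (quantile) in mice labelled Il10-/-. Over tested features, normexp moved the median from −0.07 to 0.58 log2 in WT mice and from 0.14 to −0.33 log2 in mice labelled Il10-/-. Of calls, 60.8% were higher in WT mice (1115 of 1833), against 50.4% under quantile normalization (705 of 1398) and 94.2% under normexp (323 of 343). In mice labelled Il10-/- 50.5% were higher (940 of 1862), against 35.9% under array median (611 of 1702), 37.5% at the 75th percentile (642 of 1713), 40.5% under quantile normalization (676 of 1671) and 100% of 1 call under normexp.

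Signs of uncalled differences (log2) turned as follows. In WT mice with covariates, H2-K1 (A_55_P2049647) was −0.23, Tap1 −0.99, Nlrc5 (A_66_P113043) 1.21 and Erap1 −0.95; Tap2 was 0.00 under array median, 0.72 under normexp, 0.032 with replicates 1 and 2 averaged and −0.24 to 0.054 without each array (WT 7 Gy vs 0 Gy: Tap2 (A_55_P2017645), highest without WT_0Gy replicate 2). In mice labelled Il10-/-, Nlrc5 (A_66_P113043) was −0.14 under array median, −0.11 at the 75th percentile, −0.47 under quantile normalization, −0.006 with replicates averaged, −0.20 with covariates and −0.14 to 0.13 without each array. There Nlrc5 (A_55_P2016034) was −0.12 and Calr −0.11 under normexp, and Erap1 was 0.068 with covariates and −0.52 to 0.17 without each array. Between genotypes at 0 Gy, Erap1 was −0.18 with covariates. At 7 Gy normexp gave B2m −0.37, H2-D1 −0.28, H2-K1 −0.52 and −0.43, H2-T23 −0.44, Tap2 −0.29, Tapbp −0.50 and Nlrc5 −0.11. For the difference of responses, quantile normalization gave B2m 0.046, H2-D1 0.031, H2-K1 0.071, Tap1 −0.13, Tap2 0.091 and Nlrc5 −0.37. Tap1 was −0.19 under array median, −0.12 with replicates averaged and −0.13 to 0.33 without each array, Tap2 was 0.12 with covariates and −0.27 to 0.024 without each array, and H2-K1 was −0.26 to 0.06 without each array.

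Signal over background limits Erap1 and Nlrc5 (A_66_P113043), well above background on 7 and 15 of 20 arrays.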
